A study of Homo sapiens with 4 samples.

Results

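ASCL2, DKK1, AXIN2, LEF1, PROM1 and CD44 are 6 genes of the intestinal crypt and of WNT signalling, and their messenger RNA was compared between CD26+ and CD26- cells of HT29, a human colorectal adenocarcinoma cell line. They were chosen by symbol from the authors' deposited table, in which 6603 genes have at least 1 probe set with a single symbol, and they cover 10 probe sets of 8413. Every probe set of the table had deposited signals that differed by 2-fold or more between the replicate 1 arrays of both groups. This held for all 11430 listed probe sets, against 51.8% to 78.2% when other CD26+ and CD26- arrays were paired. The values of replicate 1 in both groups, with earlier results of these arrays, thus selected the members, and differences between these arrays are given as a description with no test. In that pair the members ranged from 2.13-fold for DKK1, just inside the 2-fold limit, to 5.66-fold for ASCL2, and 7 of the 10 probe sets were higher and 3 lower in CD26+ cells. No HT29 probe set below the limit is in the table, so no gene just outside it can be named.

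HT29 cells were grown in DMEM with FBS and sorted by FACS into the brightest and the dimmest 5% for surface CD26, a peptidase encoded by DPP4. Each group had 2 samples, whose total RNA was read on U133 Plus 2.0 arrays from Affymetrix, 1 for each sample, and the labels give no treatment. The labels call the 2 samples of each group biological replicates. All groups share the single line HT29, so the values describe 1 cell line. The p-values here reflect no more than the spread among 4 arrays, and how far that spread is technical was not tested. The smallest p that exact permutation of 2 against 2 arrays allows is 0.33.

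The sort and the arrays were checked before the members. DPP4, which the gate used, had signals with 203717_at of 1952 in CD26- replicate 1, 6465 in the array labelled CD26- replicate 2, 6649 in CD26+ replicate 1 and 2513 in CD26+ replicate 2. With 203716_s_at DPP4 gave 203, 867, 516 and 549 in the same order of arrays. The array labelled CD26- replicate 2 thus carried as much DPP4 signal as CD26+ replicate 1 with 203717_at, and more with 203716_s_at. Every direction given between the groups has this limit. CD26+ replicate 2 stood apart from the rest. Over probe sets, as a description, its log2 signals had correlations (Pearson r) of 0.294 to 0.327 with those of the others, which reached 0.91 to 0.929 among themselves. The median signal was 270.3 on CD26+ replicate 2 and 76.1 to 96.7 on the others. Of 11 markers of colorectal epithelium 7 were named in the table, among them CDH1, the adhesion protein of epithelial junctions, and KRT19 and KRT20, keratins of the colon. Their summed signal was 62654 in CD26- replicate 1, 132738 in the array labelled CD26- replicate 2, 57254 in CD26+ replicate 1 and 2881 in CD26+ replicate 2, where CDH1 gave 27.7 and KRT20 36.3. Of 8 immune markers CD14 and LYZ were named, with a summed signal of 2379 to 6783 on the other arrays and 157 on CD26+ replicate 2. This sum was mostly LYZ, which gave 6559.7 on CD26- replicate 1, where CD14 gave 222.8, so it is not read as a signal of immune cells. Of 7 fibroblast markers COL1A1 and DCN were named, with a summed signal of 41.6 to 374 on the other arrays and 3388 on CD26+ replicate 2, and of 5 endothelial markers 0 were named. The summed epithelial signal was thus lowest and the summed fibroblast signal highest on CD26+ replicate 2, but CDX1, a homeobox factor of the intestine, and CDH17, an intestinal cadherin, named after their values were seen, gave 380.2 and 814 there, above both replicate 1 arrays. The part of these markers in the results below was not tested. Results are given with and without this array.

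In the intestinal crypt, WNT ligands bind frizzled receptors with LRP co-receptors, which halts the destruction complex of APC, AXIN and GSK3 and lets β-catenin enter the nucleus and switch on genes together with TCF and LEF factors. This signal keeps the stem cells at the crypt base dividing, and it fades as cells move towards the lumen and differentiate. Most colorectal cancers, HT29 among them, carry a truncated APC, so that β-catenin signalling runs without the ligand. ASCL2 is a helix-loop-helix factor of crypt base stem cells, DKK1 a secreted inhibitor that binds LRP co-receptors, AXIN2 a scaffold of the destruction complex and a feedback target, and LEF1 a DNA-binding partner of β-catenin. PROM1 encodes CD133, and CD44 encodes a hyaluronan receptor. Both are surface proteins that have been used to sort colon cancer cells with stem cell properties.

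TCF and LEF factors bind DNA with the core letters CTTTG followed by A or T, and the promoters of the members were searched for CTTTGA and CTTTGT on both strands, overlapping matches counted separately. A promoter here is the window of RefSeq (GRCh38.p14) from 250 bases before to 50 bases after a start site, and 4 of the 6 members have at least 1. DKK1 held 3 matches, on both strands, beginning 149, 95 and 76 bases before the start. Of 35116 promoter windows 26.2% held at least 1 match and 0.886% held at least 3. PROM1 has 4 windows, of which the one printed here held 1 match, while the windows of LEF1 and CD44 held 0. ASCL2 and AXIN2 were not among the matched genes. The window of DKK1 is shown because it holds the most matches of any member, and that of PROM1 because it is the other one with a match. Capitals mark the matches, read 5′ to 3′ on the strand of the gene.
DKK1, chr10:52314031-52314330, plus strand: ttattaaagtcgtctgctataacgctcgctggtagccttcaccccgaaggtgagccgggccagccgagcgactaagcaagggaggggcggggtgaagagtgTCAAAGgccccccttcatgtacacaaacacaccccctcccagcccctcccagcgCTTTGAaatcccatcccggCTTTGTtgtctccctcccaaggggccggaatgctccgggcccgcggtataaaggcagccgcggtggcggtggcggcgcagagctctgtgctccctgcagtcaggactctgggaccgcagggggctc
PROM1, chr4:16076069-16076368, minus strand: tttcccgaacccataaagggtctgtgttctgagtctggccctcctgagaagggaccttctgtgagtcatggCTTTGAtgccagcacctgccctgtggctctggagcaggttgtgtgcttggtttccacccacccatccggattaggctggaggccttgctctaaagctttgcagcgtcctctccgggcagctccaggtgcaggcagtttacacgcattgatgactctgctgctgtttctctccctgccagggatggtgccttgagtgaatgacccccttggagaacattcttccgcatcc
A match is a description of the letters and no evidence of binding, and no match says only that these letters are absent from the window.

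Of the 4 arrays, CD26+ replicate 1 carried the most ASCL2 and DKK1 signal and the least LEF1 signal. It also carried the most CD44 signal with each listed CD44 probe set. ASCL2 (229215_at, chromosome 11, 2289727 to 2290313, in the authors' coordinates, whose build is not given in the sources used here) had signals of 281 in CD26- replicate 1, 72.8 in the array labelled CD26- replicate 2, 1589 in CD26+ replicate 1 and 284 in CD26+ replicate 2. Only CD26+ replicate 1 lay clear of the CD26- arrays, 5.66-fold above the first, which chose it, and 21.8-fold above the array labelled CD26- replicate 2. CD26+ replicate 2 equalled CD26- replicate 1 in the deposited signals, at a ratio of 1.01, but was lower by 1.28 on the normalized log2 scale, so the groups overlapped after normalization. Within each array, ASCL2 stood at the 69.3rd, 44.3rd, 89.3rd and 51.2nd percentile of all probe sets in the same order of arrays. On the normalized scale, the log2 fold change (CD26+ over CD26-) was 1.22 with all 4 arrays (standard error 1.38, adjusted p = 0.797 from limma) and 2.87 without CD26+ replicate 2 (standard error 0.84, adjusted p = 0.837 from limma).

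DKK1, the secreted inhibitor (204602_at, chromosome 10, 54074077 to 54077143), gave 4128 in CD26- replicate 1, 1613 in the array labelled CD26- replicate 2, 8808 in CD26+ replicate 1 and 245 in CD26+ replicate 2. The CD26+ arrays were thus the highest and the lowest of the 4, and the CD26- arrays lay between them. CD26+ replicate 1 was 5.46-fold above the array labelled CD26- replicate 2, while CD26+ replicate 2 was 6.58-fold below it. The log2 fold change was −1.25 with all arrays (standard error 1.97) and 1.64 without CD26+ replicate 2 (standard error 0.73), so the direction turned with that array.

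AXIN2 had a bright and a dim probe set in the list, which disagreed, and any AXIN2 probe sets outside the list were not read. The bright one, 222696_at (chromosome 17, 63524684 to 63554827), gave 3563 in CD26- replicate 1, 2847 in the array labelled CD26- replicate 2, 1637 in CD26+ replicate 1 and 438 in CD26+ replicate 2. It was the only member probe set, 1 of 10, whose groups did not overlap after normalization, where 44.1% of all 8413 listed probe sets with a single symbol did not overlap in either direction. Its log2 fold change was −2.19 (standard error 1.12, adjusted p = 0.79 from limma) and −0.89 without CD26+ replicate 2 (standard error 0.56). CD26+ replicate 1 was 1.74-fold below the array labelled CD26- replicate 2, while the other CD26+ array was 6.51-fold below it. The dim probe set, 224176_s_at (chromosome 17, 63526002 to 63554847), gave 99.9, 46.7, 18.1 and 921 on the same arrays. It was also lowest on CD26+ replicate 1 among the first 3 arrays, but highest on CD26+ replicate 2, and its log2 fold change was 0.85 with all arrays and −1.19 without CD26+ replicate 2.

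LEF1, the nuclear partner (221557_s_at, chromosome 4, 108968703 to 109089635), gave 69.0 in CD26- replicate 1, 35.7 in the array labelled CD26- replicate 2, 14.1 in CD26+ replicate 1 and 825 in CD26+ replicate 2. On the first 3 arrays these signals lay at the 20.6th to 48.0th percentile, below the median of each array, and on CD26+ replicate 2 at the 80.2nd. The log2 fold change was 0.95 with all arrays (standard error 1.48) and −1.04 without CD26+ replicate 2 (standard error 0.67). LEF1 followed the dim AXIN2 probe set closely. With each profile centred on its mean, the root mean square difference of their normalized log2 values over the 4 arrays was 0.08, while that between the AXIN2 probe sets was 2.83. GLI3 and IL18BP came about as near to LEF1, at 0.10 and 0.13, so the likeness is not particular to these members. It is a description over 4 arrays.

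PROM1 (204304_s_at, chromosome 4, 15969856 to 16077566) gave 4425 in CD26- replicate 1, 17729 in the array labelled CD26- replicate 2, 10127 in CD26+ replicate 1 and 270.2 in CD26+ replicate 2. Its highest signal was thus in a CD26- sample, and it was the only member listed as higher whose direction turned against the array labelled CD26- replicate 2, which was 1.75-fold above CD26+ replicate 1. On the first 3 arrays PROM1 was lowest on CD26- replicate 1, as DPP4 was. The choice itself required a 2-fold gap, in either direction, between the replicate 1 arrays for both genes. The brighter DPP4 probe set was slightly higher on CD26+ replicate 1 than on the array labelled CD26- replicate 2, unlike PROM1. Among the epithelial markers VIL1, LGALS4 and CDX1 had the order of PROM1, while CDH1, KRT19, KRT20 and CDH17 did not. The likeness is thus not particular to PROM1 and DPP4. The log2 fold change of PROM1 was −2.97 with all arrays (standard error 2.06) and −0.05 without CD26+ replicate 2 (standard error 1.03).

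CD44 was higher in CD26+ replicate 1 than in both CD26- arrays with every listed probe set. The choice itself required a 2-fold gap from CD26- replicate 1, and any CD44 probe sets outside the list were not read. Its 4 listed probe sets span nearly the same stretch of chromosome 11 in the authors' coordinates, from 35160416 at the earliest to 35252243 at the latest. They share the gene, so they are no replicates of a condition. With 204490_s_at CD44 gave 1374 in CD26- replicate 1, 1514 in the array labelled CD26- replicate 2, 3017 in CD26+ replicate 1 and 1026 in CD26+ replicate 2. With 204489_s_at it gave 3750.0, 3535, 8220.2 and 59.8, and with 212014_x_at 1737, 2313, 4195 and 185. With 1557905_s_at, whose alignment ends first, at 35243266, it gave 381, 408, 850 and 629. All 4 probe sets placed CD26+ replicate 1 above both CD26- arrays, by 1.81-fold to 2.33-fold over the array labelled CD26- replicate 2, and the CD26- arrays themselves differed by at most 1.33-fold. CD26+ replicate 2 split them. Compared with CD26+ replicate 1 it was 137-fold lower with 204489_s_at and 22.7-fold lower with 212014_x_at, but 2.94-fold and 1.35-fold lower with 204490_s_at and 1557905_s_at. Without CD26+ replicate 2, in a fit that holds the choosing pair, the 4 probe sets had log2 fold changes of 0.96 to 1.06. With all arrays they were 0.30 for 204490_s_at, which has the highest mean normalized log2 value and stands for the gene, 0.49 for 1557905_s_at, −1.62 for 212014_x_at and −2.70 for 204489_s_at, and 204490_s_at was at −0.41 with each array centred on its median.

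**Figure D1:**
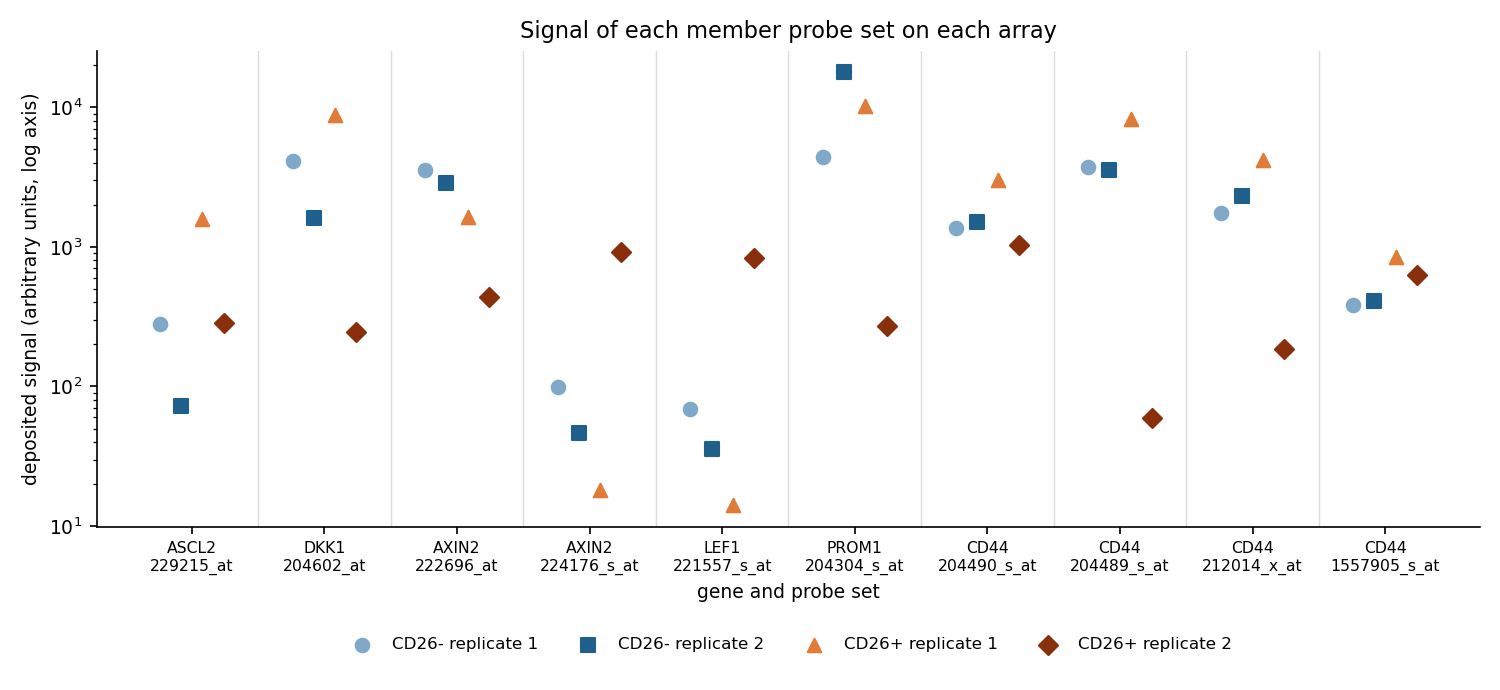
Deposited signal (log axis, arbitrary units) of the 10 member probe sets on the 4 arrays, with 1 point per array and symbols for the arrays. CD26+ replicate 1 (triangles) is highest for ASCL2, DKK1 and the 4 CD44 probe sets, and CD26+ replicate 2 (diamonds) ranges from 59.8 for CD44 with 204489_s_at to 1026 for CD44 with 204490_s_at.

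No member passed the test across all probe sets. Limma called 0 of 54613 probe sets, or 0%, at an adjusted p under 0.05, and 853, or 1.56%, at an unadjusted p under 0.05, where 0 of the 10 member probe sets were among them. The methods' t-test called 0 probe sets after Benjamini-Hochberg adjustment and 1846 at an unadjusted p under 0.05. The adjusted p-values of the members were 0.79 to 0.913. The replicate 1 arrays that chose the members enter this fit and the fit without CD26+ replicate 2, so the estimates of neither are an independent test of them. The shares given here are over all probe sets, listed or not. Without CD26+ replicate 2 limma called 0 probe sets and 5.91% at an unadjusted p under 0.05, with ASCL2 as the only member among the latter. Without CD26+ replicate 1, which leaves the array that stands apart alone against the CD26- arrays and assumes that it varies like them, limma called 7 of the 10 member probe sets and 42.4% of all. The estimates of the 2 fits are set side by side in the plot with standard errors, where 5 of the 10 lie on opposite sides of 0.

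**Figure D2:**
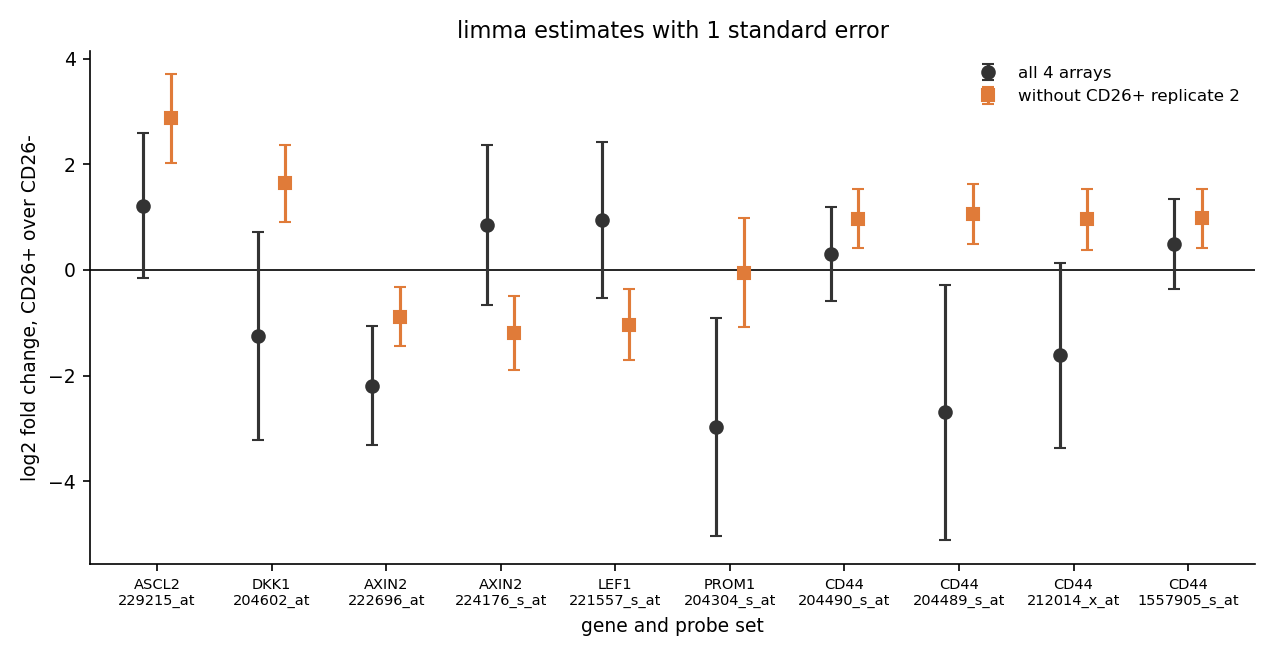
Log2 fold change, CD26+ relative to CD26-, for the 10 member probe sets (points, with bars of 1 standard error from limma), with all 4 arrays (circles) and without CD26+ replicate 2 (squares). ASCL2 moves from 1.22 to 2.87 and DKK1 from −1.25 to 1.64.

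Compared with the array labelled CD26- replicate 2, which the table did not use, CD26+ replicate 1 was higher after normalization for 6 of the 7 member probe sets listed as higher, all but PROM1, where 79.2% of all were. It was lower for the 3 listed as lower, where 75.1% of all were. On the normalized scale 4 of the 7 listed as higher were at least 2-fold higher, namely ASCL2, DKK1 and CD44 with 204489_s_at and 1557905_s_at, where 33.6% of all 4721 such probe sets were. Of the 3 listed as lower, 0 were at least 2-fold lower after normalization, where 31.9% of all 3692 such probe sets were. AXIN2 with 224176_s_at and LEF1 were 2.58-fold and 2.52-fold lower in the deposited signals, and lower by 0.63 and 0.55 in normalized log2(signal + 16). This comparison shares CD26+ replicate 1 with the pair that chose the members.

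The only pair that shares no array with the choice sets CD26+ replicate 2 beside the array labelled CD26- replicate 2. Of the 7 member probe sets listed as higher, 0 were at least 2-fold higher there, where 36.5% of all were, and 4 were at least 2-fold lower (DKK1, PROM1 and 2 of CD44), where 35.6% of all were. ASCL2 was higher by 0.40 on the normalized log2 scale and 3.90-fold in the deposited signals. Of the 3 listed as lower, 2 were at least 2-fold higher, AXIN2 with 224176_s_at and LEF1, where 27.5% of all were, and 1 was at least 2-fold lower, AXIN2 with 222696_at, where 46.8% of all were. With 1 array on each side there is no test of this pair.

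**Figure D3:**
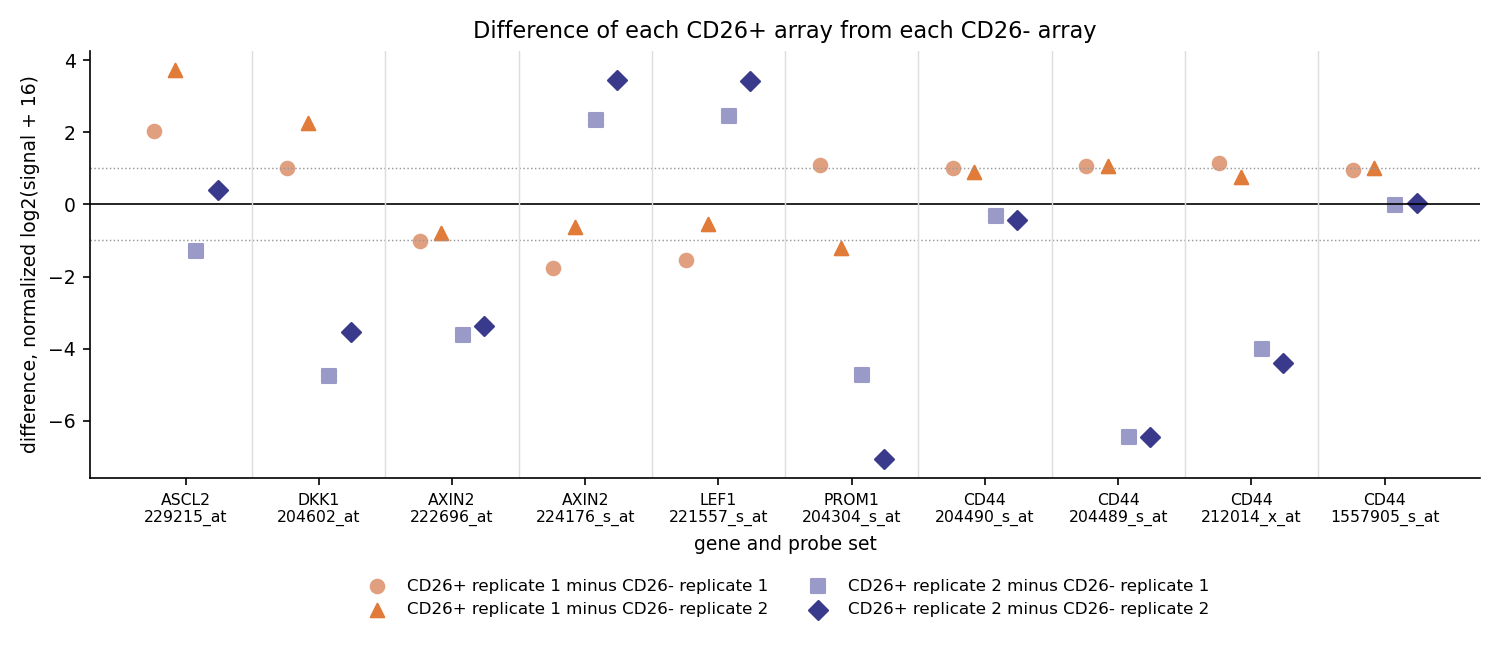
Difference in normalized log2(signal + 16) of each CD26+ array from each CD26- array for the 10 member probe sets, with dotted lines at 2-fold. Points of CD26+ replicate 1 against CD26- replicate 1 lie on the listed side of 0 by the choice. Those against the array labelled CD26- replicate 2 do so for every probe set but PROM1. Points of CD26+ replicate 2 reach −7.05 for PROM1 and 3.45 for AXIN2 with 224176_s_at.

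Bright members were low and dim members high on CD26+ replicate 2. Of the 6 member probe sets at or above the 75th percentile on each of the other 3 arrays, 5 were at least 2-fold lower on CD26+ replicate 2 than on every other array, where 67.5% of all 1662 such listed probe sets were. These were DKK1, AXIN2 with 222696_at, PROM1 and CD44 with 204489_s_at and 212014_x_at, which lay at percentiles of 89.4 to 99.3 on the others and of 14.6 to 62.5 on CD26+ replicate 2. The sixth was CD44 with 204490_s_at, at the 85.5th percentile. Both member probe sets below the 75th percentile on each of the others, AXIN2 with 224176_s_at and LEF1, were at least 2-fold higher on CD26+ replicate 2 than on every other array, where 33.0% of all 4988 such probe sets were. The percentile of 75 was picked after the values were seen, and the array stood apart across all probe sets, so these shifts cannot be told apart from that of the whole array.

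**Figure D4:**
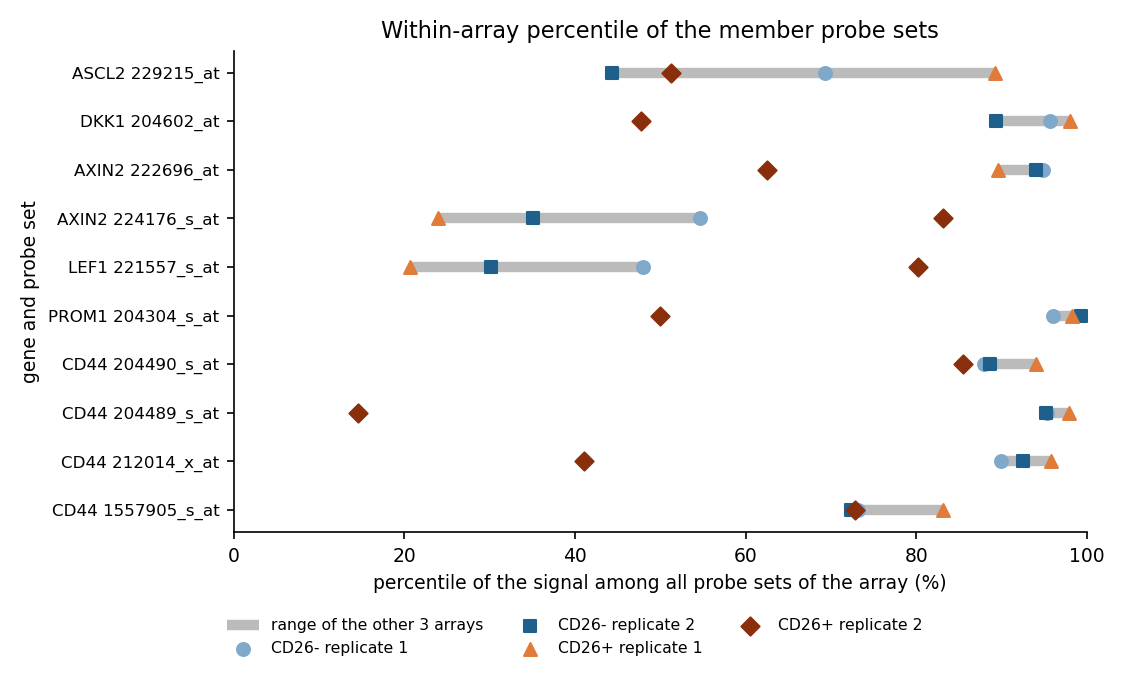
Percentile of each member probe set among all probe sets of the same array (horizontal axis, %), with grey bars for the range of the other 3 arrays. CD26+ replicate 2 (diamonds) lies left of the bars for the bright probe sets, as for CD44 with 204489_s_at at 14.6 against 95.2 to 97.9, and right of them for LEF1 and the dim AXIN2 probe set.

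The CD26- arrays also differed from each other. Of the 10 member probe sets, 4 were at least 2-fold apart between them after normalization, where 33.3% of all listed probe sets were. ASCL2 was 3.86-fold, DKK1 2.56-fold and AXIN2 with 224176_s_at 2.14-fold higher on CD26- replicate 1, and PROM1 was 4.01-fold higher on the array labelled CD26- replicate 2.

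The other genes of the pathway were taken from lists of textbook genes, each gene standing for its brightest listed probe set, and limma called 0 genes of each list in either direction, with 2 ligands and 1 target at an unadjusted p under 0.05, where 3.12% of all listed genes were. Of all listed genes 43.8% had groups that did not overlap, so nothing particular to a gene is read from non-overlap below. Because only genes with a 2-fold gap between the replicate 1 arrays have a name, the lists are incomplete. Among all 6603 listed genes the median log2 fold change was 0.04, and 0.42 without CD26+ replicate 2.

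Of 21 ligands and secretion factors 6 were named, 3 listed as higher and 3 as lower, and their median log2 fold change was 0.36, or 0.55 when CD26+ replicate 2 was left out. WNT11, a ligand of mostly β-catenin-independent signalling, had 860 and 104 in the CD26- samples and 19.0 and 53.9 in the CD26+ samples, and limma put its log2 fold change at −3.09 (standard error 1.12, adjusted p = 0.79). WNT16 gave 66.0 and 30.7 against 187 and 1503, and WNT8A 13.4 and 33.5 against 83.7 and 842. The groups of these 3 of the 6 ligands did not overlap. Of 24 receptors and R-spondin genes 8 were named, 2 higher and 6 lower, with medians of −0.69 and 0.14. FZD2, a frizzled receptor, gave 143 and 19.9 in CD26- cells against 308 and 605 in CD26+ cells, and FZD6 2196 and 1025 against 790.4 and 52.6. Of the 8 receptors these 2 had groups that did not overlap, FZD2 higher and FZD6 lower in CD26+ samples.

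Of 15 secreted inhibitors and their receptors 3 were named, DKK1 and 2 more, with medians of −0.55 and 1.08. KREMEN1, a receptor of DKK proteins, gave 248 and 170 in CD26- cells and 498 and 105 in CD26+ cells, and so, like DKK1, was highest on CD26+ replicate 1 and lowest on CD26+ replicate 2. SFRP1, which binds WNT ligands, gave 64.7 and 45.4 against 20.7 and 297. Of 23 genes of the destruction complex and the transducers 8 were named, 3 higher and 5 lower, with medians of −0.08 and −0.42. APC gave 48.6 and 123 against 17.5 and 384, and GSK3A, a kinase of the complex, 96.5 and 41.9 against 217 and 1309. Of 15 nuclear factors 4 were named, 1 higher and 3 lower, with medians of 0.26 and −0.95. TCF7L2, the main TCF factor of the intestine, gave 1332 and 1318 and then 638 and 876, with an estimate of −0.75 (log2, standard error 0.80) and of −0.86 without CD26+ replicate 2, and it was the only 1 of the 4 whose groups did not overlap.

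Of 23 WNT target genes of the intestine 13 were named, 6 higher and 7 lower, 5 of them members, with medians of 0.24 and 0.61. MMP7, a matrix protease, gave 26109 and 8650.4 in the CD26- samples and 3641 and 156 in the CD26+ samples, and limma put its log2 fold change at −4.98 (standard error 1.85, adjusted p = 0.79) and at −2.39 without CD26+ replicate 2. EPHB2 and EPHB3, ephrin receptors that sort cells along the crypt, had log2 fold changes of 1.48 and 1.41, and of 0.86 and 0.61 without CD26+ replicate 2. Among the 13 targets 4 had groups that did not overlap, against 43.8% of all listed genes. These 4 did not share a direction, with MMP7 and the bright AXIN2 probe set low and EPHB2 and EPHB3 high on both CD26+ arrays. Of 23 stem and crypt genes 10 were named, 6 higher and 4 lower, with medians of 0.14 and 0.74. EPHB2 and EPHB3, given above, are among those listed as higher. Among those listed as lower ITGB1, an integrin subunit, gave 5058 and 2501 against 1196 and 277, and PHLDA1 10152 and 561 against 3762 and 701.

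The genes whose profile over the 4 arrays came nearest to each member were found among 6602 others by the root mean square difference of the centred normalized log2 values. For ASCL2 they were ZNF529 (0.07) and CBX2 (0.29), for DKK1 PSPH (0.10) and C1orf122 (0.15), and for PROM1 IFT57 (0.16) and EIF2C4 (0.21). For AXIN2 they were IREB2 and ZMYND17 (both 0.04), for LEF1 GLI3 (0.10) and IL18BP (0.13), and for CD44 STARD5 (0.03) and NUCB1 (0.04). Between the brightest probe sets of the members the nearest pair was ASCL2 and CD44, at 1.05, and the farthest LEF1 and PROM1, at 4.15. With 4 arrays of which 1 stood apart, such likeness describes these arrays only.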

How the data were processed

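The authors' deposited value table holds linear intensity values of 54675 probe sets on 4 arrays, and the methods name Genespring GX with the Genomatix analyzer. How signals were summarized and scaled, and the genome build, is not stated in those sources. Their second table, deposited as 1 CD26+ against 1 CD26- array and marking the CD26+ array with a 2, holds fold changes, log2 fold changes and directions that were not used here. Only its list of probe sets, symbols, Entrez identifiers and alignments were. Other units of the authors, such as raw probe intensities, were not analysed here. The mark of 2 does not match the listing, which fits the array labelled CD26+ replicate 1, so the identity of both CD26+ arrays is in doubt. Array names follow the sample labels.

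Signals were quantile normalized, 16 was added and log2 was taken, so fold changes on this scale understate those of dim probe sets. After 62 control probe sets were left out, the fit of limma 3.58.1 (lmFit and eBayes, R 4.3.3) covered 54613, CD26+ minus CD26-, two-sided, with Benjamini-Hochberg adjustment at 0.05. Each gene was represented by its listed probe set with the highest mean normalized log2 value, called its brightest. Signals and ratios are as deposited, and 2-fold counts are normalized. The fit was also run on simulated data with known changes and independent normal noise, equal on all arrays for each probe set. No simulated array stood apart, so that run does not show how the fit behaves on these arrays. Over all probe sets the median log2 fold change was 0.11, against 0.63 in the values as deposited and −0.06 with arrays centred. Of 6603 genes, 6342 matched the RefSeq table (GRCh38.p14) by Entrez identifier, and lists were matched by deposited or current symbol.

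The members and lists were chosen with earlier results of these data known. Genes named are the members, DPP4, up to 4 of each list with the largest moderated statistic or with groups at least 2-fold apart, from which the text gives a selection, and the 2 nearest profiles of each member. CDX1 and CDH17 fall outside this rule and were named after their values were seen. Replicate numbers were not used as pairs in the main fit. The deviations of same-numbered arrays had a correlation of 0.04. CD26+ replicate 2, which stood apart, enters this value, so it cannot tell whether the samples were paired. Alternatives were other scalings, pseudocounts of 1 and 64, a robust prior with trend, leaving out dim probe sets or each array in turn, a replicate block, other probe set choices and the methods' t-test. The number of arrays limits the precision.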

Additional observations from a re-analysis of the deposited data

How the results depend on the processing

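The count of probe sets called by limma was 0 in the fit of all arrays and moved to 1 with the replicate block, where none of the members was called, and to between 0 and 23137 when an array was left out, the highest without CD26+ replicate 1. Of the 10 member probe sets between 0 and 7 were called with an array left out. Without CD26+ replicate 1 the log2 fold changes were −4.15 for DKK1, −3.49 and 2.89 for AXIN2 with 222696_at and 224176_s_at, −6.46 and −4.21 for CD44 with 204489_s_at and 212014_x_at, 2.94 for LEF1, −5.89 for PROM1, −0.44 for ASCL2 and −0.36 for CD44 with 204490_s_at, of which the last pair turned and the others passed the threshold. Without CD26+ replicate 2 the values turned to 1.64 for DKK1, −1.04 for LEF1, −1.19 for AXIN2 with 224176_s_at, 1.06 for CD44 with 204489_s_at and 0.96 for CD44 with 212014_x_at. With the other 3 arrays normalized without it these were 1.67, −1.09, −1.25, 1.06 and 1.01. With an array left out ASCL2 ranged from −0.44 to 2.87, DKK1 from −4.15 to 1.64, AXIN2 from −3.49 to −0.89, LEF1 from −1.04 to 2.94, PROM1 from −5.89 to −0.05 and CD44 from −0.36 to 0.97. AXIN2 was at −0.67 when its listed probe sets were averaged. CD44 also turned with arrays centred on their medians (−0.41) and when its listed probe sets were averaged (−0.88). It turned too with the listed probe set brightest on the other 3 arrays (−2.70). Of the log2 fold changes under all alternatives 111 kept their direction and their side of the threshold, 15 turned and 7 passed the threshold. The robust prior with trend, the methods' t-test, the replicate block and leaving out dim probe sets cannot change an estimate. Their directions were thus kept by construction. Those that kept their direction also include PROM1 at −0.05 without CD26+ replicate 2, against −2.97 with all arrays, so the count is no measure of stability. On CD26+ replicate 2 against CD26- replicate 1 the count of higher member probe sets was 2 after normalization and 4 in the deposited signals. The cause of these changes was not tested, beyond the array that each alternative leaves out. The count at an unadjusted p under 0.05, 853 with all arrays, was 18 to 28486 with an array left out, 3398 with the replicate block, 1846 by the methods' t-test and 180 among 27306 bright probe sets. How far dim members such as LEF1 lay above background was not analysed here.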
